A study of Danio rerio with 36 samples.

Results

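The genes described here are hydrolases, membrane proteins and regulators of the lysosome that lie outside the heparan sulfate enzymes, hexosaminidases, cathepsins and V-ATPase. They were taken from a list of 37 gene names, and a gene was a member when its name in the count tables was on that list. This gave 28 members among the 32520 genes of the tables, and all 28 passed the filter on low counts in every comparison. The names lamp1a, npc2, gba, gaa, arsb, fuca1, scarb2b, mcoln1b and lipa matched no row by that rule. By role, the members were 10 membrane proteins and transporters (lamp1b, lamp2, scarb2a, cd63, npc1, mcoln1a, slc17a5, ctns, cln3 and cln8), 7 sphingolipid hydrolases and their activator (psap, gla, asah1a, asah1b, smpd1, arsa and galca), 4 glycan hydrolases (galns, manba, man2b1 and aga), the peptidase tpp1 and the thioesterase ppt1, the progranulins grna and grnb, and the transcription factors tfeb, tfe3a and tfe3b.

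RNA was sequenced from zebrafish homozygous for sgsh_delex5-6 (sgsh) and from wild-type fish (WT). The 36 libraries form 12 groups of 3. Both genotypes were sampled as whole embryos at 24 hours post-fertilization (hpf), as larval heads at 5 days post-fertilization (dpf) and as brains at 2, 3 and 18 months. A further pair of 2-month groups, in both genotypes, stably carried Tg(-3.5ubb:mTagBFP2-T2A-sgsh), while all other groups had no transgene. This transgene (Tg) places mTagBFP2 and sgsh under a promoter of ubb, a ubiquitin gene that is active in most tissues. An embryo or head library pooled 50 animals and a brain library pooled 3 brains, and adult fish were bled before dissection. Whether the libraries of a group came from separate clutches was not stated, so that p-values measure the spread between pooled libraries only. Libraries held 24761341 to 26038889 counts at 24 hpf, 17061799 to 17303538 at 5 dpf, 16200025 to 16594654 at 2 months, 21340728 to 24678514 at 3 months and 22177654 to 22511711 at 18 months.

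The product of sgsh is the sulfatase that removes N-linked sulfate from heparan sulfate, and its loss causes mucopolysaccharidosis IIIA, in which heparan sulfate is stored in lysosomes and the brain degenerates. Lysosomes degrade other substrates through the enzymes listed above, export the products through transporters such as slc17a5 (sialic acid) and ctns (cystine), and are bounded by a membrane rich in the LAMP proteins and the scavenger receptor family member encoded by scarb2a. In mammals, TFEB and TFE3 are transcription factors that enter the nucleus when lysosomes are stressed and activate many lysosomal genes. Microglia, the macrophages of the brain, are rich in lysosomes and in progranulin, so that the number of these cells bears on the level of lysosomal transcripts in bulk tissue. In such tissue, fewer cells of a type and less RNA per cell cannot be told apart.

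The genotype labels were read against sgsh itself (chromosome 22, 11520249 to 11532760). At 5 dpf sgsh had 7.46, 7.29 and 8.21 CPM (the count scaled to the total count of the library) in sgsh heads, against 16.3, 13.5 and 14.5 CPM in WT heads. It had 2.35, 2.15 and 2.11 CPM in sgsh brains at 3 months, against 4.74, 4.08 and 4.57 CPM in WT brains, and 2.93, 4.14 and 3.62 against 6.84, 6.60 and 6.56 CPM at 18 months. At 2 months the values were 4.28, 5.15 and 4.38 CPM in sgsh brains, against 8.80, 7.55 and 9.09 CPM in WT brains. The groups did not overlap at any of these ages. By edgeR's quasi-likelihood test sgsh differed at an adjusted p under 0.05 at 5 dpf, 3 months and 18 months. At 2 months it did not (log2 fold change -0.88 ± 0.256 (SE), edgeR adjusted p = 0.201). At 24 hpf the values were 8.32, 6.44 and 7.04 CPM in sgsh embryos, against 6.98, 8.63 and 7.83 CPM in WT embryos, and the ranges overlapped. With Tg, sgsh had 115, 168 and 113 CPM in sgsh brains, against 170, 154 and 221 CPM in WT brains, and these ranges overlapped as well.

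The tissue labels were read against lists of marker genes. Of 7 neuronal markers, none was at 0 in any group, and their summed level was 528 to 575 CPM in the embryos, 2523 to 2592 CPM in the heads and 6239 to 8835 CPM in the brains. The 8 skeletal muscle markers summed to 13219 to 18688 CPM in embryos, to 11146 to 12519 CPM in heads and to at most 121 CPM in brains without Tg, while the highest brain library with Tg reached 1210 CPM in sgsh and 1027 CPM in WT. The sgsh 18-month libraries differed most among replicates, with a chi-square per gene of 17.6 between replicates 1 and 3, while no pair in any group agreed within sampling noise.

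Levels were compared between genes per kilobase of transcript (RPKM, mean ± SD, n = 3). In WT 3-month brain psap, the precursor of the saposins that help hydrolases reach their lipids, was the most abundant member at 254 ± 4.44 RPKM. It was followed by cd63, a tetraspanin of late endosomes, at 129 ± 1.04 RPKM, and by lamp1b at 39.8 ± 2.23 RPKM. Next came scarb2a at 27.6 ± 0.85 RPKM and lamp2, which encodes the other main LAMP protein, at 26.9 ± 1.74 RPKM, and this pair differed by less than its SDs. At the low end were manba, the lysosomal beta-mannosidase, at 0.857 RPKM, and tfeb at 1.82 ± 0.252 RPKM, tfe3a at 1.98 ± 0.214 RPKM and tfe3b at 2.01 ± 0.328 RPKM, whose SDs overlapped. Of the 28 members, 21 were under 10 RPKM in that tissue, and psap had the highest level in all 12 groups.

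**Figure D1:**
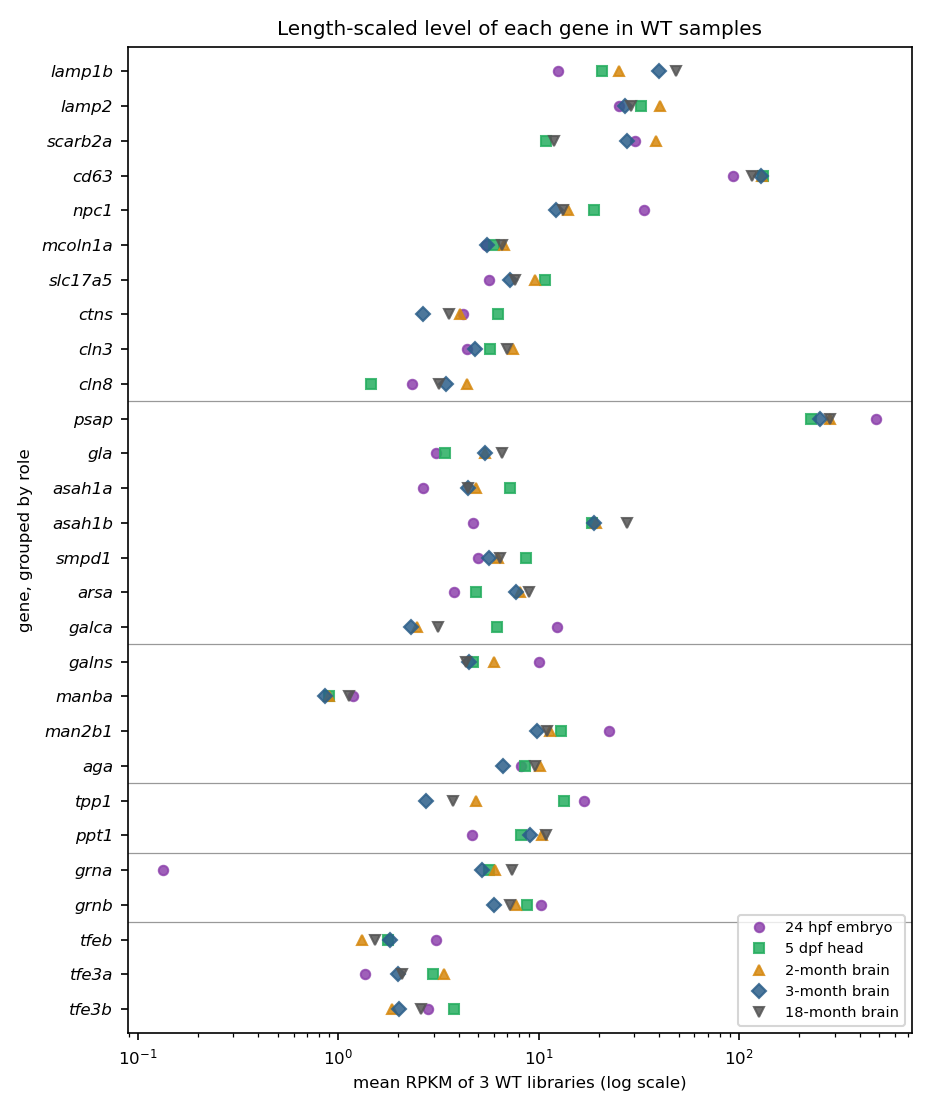
Mean level of each of the 28 genes in WT samples, in RPKM of 3 libraries on a log axis, for 24 hpf embryos, 5 dpf heads and 2-, 3- and 18-month brains, with genes ordered by role and roles separated by lines. psap lies highest in every WT group, and grna in the embryos lies lowest of all, at 0.134 RPKM.

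The members differed widely between stages in WT fish. Between WT 24 hpf embryos and WT 3-month brains, 24 of 28 members differed by edgeR's quasi-likelihood test at an adjusted p under 0.05, with 13 higher and 11 lower in embryos. Of all 21531 genes tested, 90.7% differed (45.8% higher and 44.9% lower), so the members were close to the rest. grna, which encodes a progranulin (secreted and lysosomal glycoproteins that are strongly made by microglia in mammals), had 0.386, 0.813 and 0.499 CPM in WT embryos, against 20.6, 20.4 and 25.2 CPM in WT 3-month brains, a log2 fold change of -5.21 ± 0.169 (SE). Its paralog grnb was higher in embryos (log2 fold change 0.86). The next most reduced in embryos were asah1b, an acid ceramidase, at -1.95, lamp1b at -1.60, the arylsulfatase gene arsa at -0.96 and ppt1, a palmitoyl-protein thioesterase, at -0.89. Highest relative to brain were tpp1, a tripeptidyl peptidase (2.68), galca, a galactosylceramidase (2.49), npc1, the membrane protein that exports cholesterol (1.53), man2b1, an alpha-mannosidase (1.26), and galns, a sulfatase that acts on keratan sulfate (1.22). Stage and tissue cannot be told apart here, because the embryos were whole.

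Between WT 5 dpf heads and WT 2-month brains, 22 of 28 members differed, 12 higher and 10 lower in heads, beside 79.4% of 21579 genes (41.2% higher and 38.2% lower). scarb2a had 71.2, 69.1 and 65.7 CPM in WT heads, against 256, 236 and 239 CPM in WT 2-month brains, a log2 fold change of -1.72 ± 0.0484 (SE). cln8, whose mammalian product helps lysosomal enzymes leave the endoplasmic reticulum, followed at -1.49, then arsa at -0.62, the alpha-galactosidase gene gla at -0.56 and cln3 at -0.28. tpp1 (1.55), galca (1.43), tfe3b (1.13), ctns (0.73) and asah1a (0.66), the second acid ceramidase, were the most raised in heads. Here too stage and tissue cannot be told apart, since a head holds more than brain.

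The comparisons of sgsh with WT asked whether these genes differed between the genotypes. The sample titles do not say whether sgsh and WT fish were siblings, so genotype and a difference between clutches or stocks cannot be told apart. Of the 28 members, 14 were called at an adjusted p under 0.05 in at least 1 of the 5 comparisons without Tg, of which 7 were called in 1 comparison, 4 in 2 and 3 in 3. Of the 17263 genes tested in all 5 comparisons, 37.1% were called in at least 1 and 8.29% in at least 2. The 14 that were never called were lamp2, slc17a5, ctns, cln3, cln8, gla, asah1a, arsa, galns, manba, aga, ppt1, tfe3a and tfe3b. Their log2 fold changes lay between -0.60 and 0.82, and 3 of these 70 values were beyond 0.5 in size, namely gla at 5 dpf (-0.50) and galns (0.82) and tfe3b (-0.60) at 18 months. Among them the transporters slc17a5 and ctns, which carry sialic acid and cystine out of the lysosome, stayed between -0.11 and 0.14 and between -0.17 and 0.20, and arsa, which removes sulfate from sulfatides, between 0.06 and 0.22.

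**Figure D2:**
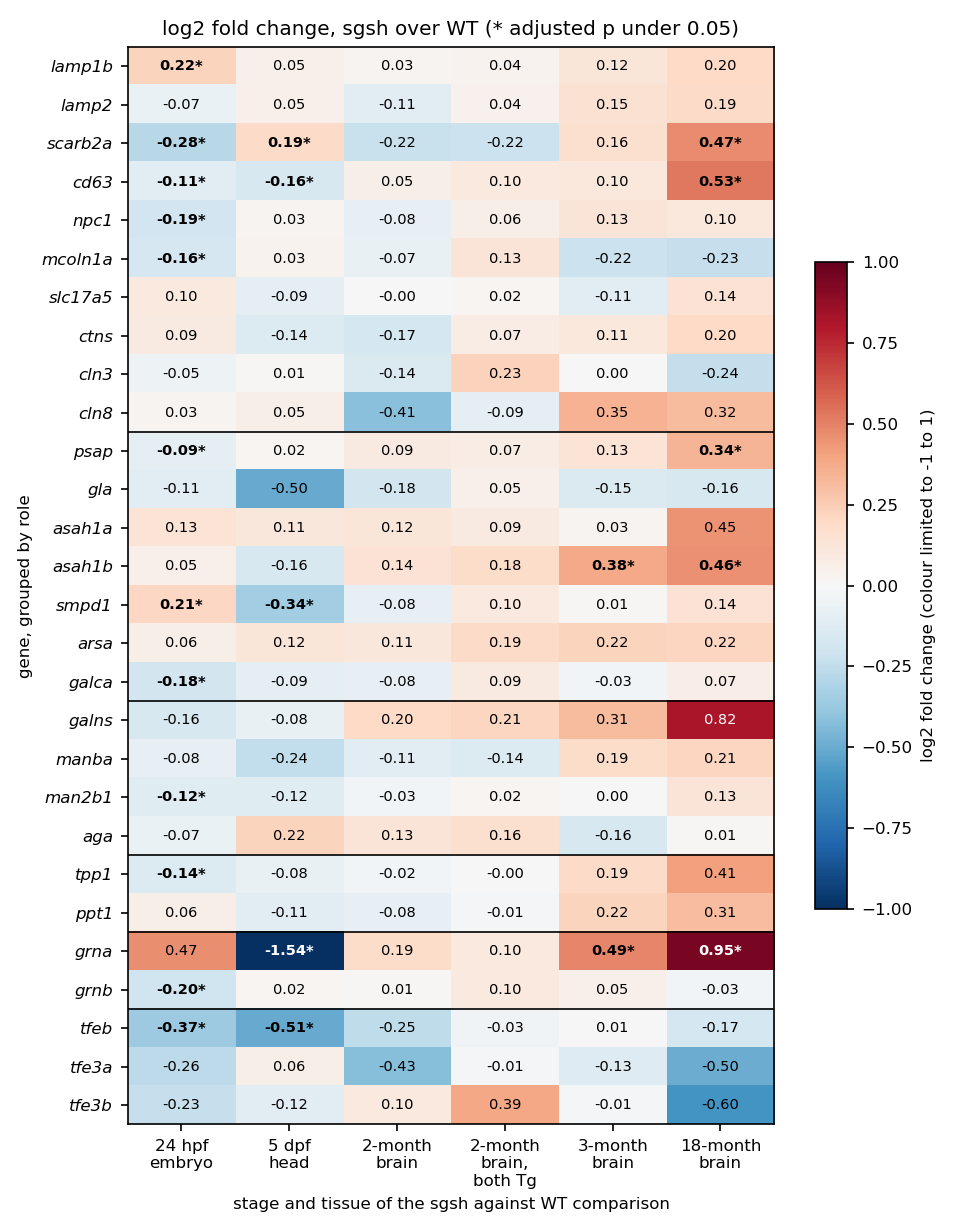
log2 fold change of each gene, sgsh over WT, in 24 hpf embryos, 5 dpf heads, 2-month brains without and with Tg in both genotypes, 3-month brains and 18-month brains, with genes in rows by role and an asterisk at an adjusted p under 0.05 (edgeR). Most starred values are negative at 24 hpf and 5 dpf, and the 7 starred values at 3 and 18 months are all positive. Both 2-month columns hold no starred value.

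In 24 hpf embryos more members were lower than higher in sgsh, by small amounts. By edgeR's quasi-likelihood test 12 of 28 were called, 2 higher and 10 lower, beside 22.0% of the 20175 genes tested (10.9% higher and 11.1% lower). The median log2 fold change of the members was -0.09, against 0 over all genes, and the largest called change was -0.37.

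Among membrane proteins, scarb2a (chromosome 5, 52844681 to 52862805) had 160, 146 and 168 CPM in sgsh embryos, against 197, 192 and 186 CPM in WT embryos. Its log2 fold change was -0.28 ± 0.0388 (SE, adjusted p = 3.18e-06 by edgeR). npc1 (chromosome 2, 3823813 to 3866971) had 149, 151 and 147 CPM in sgsh embryos, against 175, 169 and 168 CPM in WT embryos, with a log2 fold change of -0.19 ± 0.0344 and an adjusted p of 9.51e-05 by edgeR. The groups of both genes did not overlap. mcoln1a, a lysosomal calcium channel, had 26.7, 26.9 and 28.7 CPM in sgsh embryos, against 31.9, 29.7 and 30.7 CPM in WT embryos (log2 fold change -0.16 ± 0.0536, edgeR adjusted p = 0.0258). lamp1b moved the other way, with 34.6, 34.4 and 33.2 CPM in sgsh embryos, against 29.6, 31.2 and 27 CPM in WT embryos (0.22 ± 0.0541, edgeR adjusted p = 0.00313). Its partner lamp2 was not called, at -0.07.

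Among the sphingolipid enzymes, galca had 32.3, 30.5 and 29.2 CPM in sgsh embryos, against 33.8, 36.6 and 33.9 CPM in WT embryos (log2 fold change -0.18 ± 0.0530, edgeR adjusted p = 0.0129). smpd1, the acid sphingomyelinase, had 17.4, 16.8 and 16.3 CPM in sgsh embryos, against 14.5, 14.6 and 14.7 CPM in WT embryos (0.21 ± 0.0661, edgeR adjusted p = 0.0212). It was the other member that rose. grnb had 27.4, 28.0 and 29.1 CPM in sgsh embryos, against 33.5, 31.9 and 31.8 CPM in WT embryos (-0.20 ± 0.0519, edgeR adjusted p = 0.00546), whereas grna was near the limit of detection in both genotypes, at 0.565 to 1.04 CPM in sgsh and 0.386 to 0.813 CPM in WT embryos. tfeb (chromosome 11, 22287954 to 22361306) had 17.3, 13.1 and 15.7 CPM in sgsh embryos, against 20.8, 18.3 and 20.4 CPM in WT embryos, a log2 fold change of -0.37 ± 0.0776 (edgeR adjusted p = 0.000985). Its relatives tfe3a and tfe3b were not called, at -0.26 and -0.23. The remaining called members, cd63, man2b1, tpp1 and psap, fell by 0.09 to 0.14 on the log2 scale. Of the 28 members, 16 did not overlap between the genotypes, the 12 called genes among them, beside 36.2% of all genes tested.

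Markers of other tissues moved in the same embryos. All 8 muscle markers were higher in sgsh embryos, summing to 17372 to 18688 CPM in sgsh and 13219 to 14991 CPM in WT, and 5 of 7 neuronal markers were higher (549 to 575 CPM in sgsh and 528 to 569 CPM in WT). Of 3 endothelial markers 2 were higher, and so were 3 of 6 tested lens and photoreceptor markers and 1 of 7 tested red blood cell markers. Other lists moved both ways or down. Of 8 pigment markers 1 was higher and 2 lower, and of 6 radial glia markers 2 were higher and 2 lower. Of 13 tested microglia markers 1 was higher and 1 lower, and of 6 tested oligodendrocyte markers 1 was lower. The part of these tissues and cell types in the members' values was not tested. With DESeq2, 6 members were called in place of 12, and scarb2a, npc1, tfeb, lamp1b, grnb and psap were those that remained. When each of the 6 libraries was left out in turn, the first 5 of these kept their calls, whereas psap lost its call 5 times, with adjusted p values up to 0.16. Of the others, smpd1, tpp1, mcoln1a and cd63 lost theirs 4 times, man2b1 3 times and galca 2 times. Without sgsh replicate 1, WT replicate 1 or WT replicate 2 the count was 7, 6 and 6.

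In 5 dpf heads the largest change of any member in these comparisons was seen. By edgeR's quasi-likelihood test 5 of 28 members were called, 1 higher and 4 lower, beside 14.6% of 21627 genes (5.92% higher and 8.69% lower). The share of members called was 17.9%.

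grna (chromosome 3, 29914427 to 29941357) had 6.59, 7.75 and 10.2 CPM in sgsh heads, against 18.3, 25.7 and 28.1 CPM in WT heads, and the groups were far apart. Its log2 fold change was -1.54 ± 0.241 (SE, edgeR adjusted p = 0.0166), with 0.091 without sgsh replicate 2 and 0.0747 without WT replicate 2. Its paralog grnb was at 0.02.

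The 16 microglia and macrophage markers were also read in heads. Of these, 6 were lower and 1 higher in sgsh heads, the median was -0.47, and the list summed to 656 to 725 CPM in sgsh and 798 to 918 CPM in WT heads, with no marker at 0. Most of these sums was apoeb alone, at 557 CPM in sgsh and 653 CPM in WT heads. irf8, the transcription factor needed for zebrafish macrophage fate, averaged 4.79 CPM in sgsh and 13.4 CPM in WT heads (log2 fold change -1.46), and csf1ra, the macrophage growth factor receptor, averaged 16.5 CPM in sgsh and 23.4 CPM in WT heads (-0.49), while cd74a, of antigen presentation, was higher in sgsh (0.92). Of the 16, irf8 fell most. cd74b (0.41), c1qc (0.18) and p2ry12 (0.10) were also positive without a call, while the other uncalled markers were negative. The part of these cells in the fall of grna was not tested.

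tfeb fell in heads as in embryos. It had 8.55, 7.58 and 7.63 CPM in sgsh heads, against 11.8, 11.7 and 10.6 CPM in WT heads (log2 fold change -0.51 ± 0.0976, edgeR adjusted p = 0.00127), and tfe3a and tfe3b were at 0.06 and -0.12 without being called. smpd1 (chromosome 10, 24709967 to 24724388) had 20.1, 19.3 and 20.1 CPM in sgsh heads, against 24.2, 25.8 and 26.5 CPM in WT heads (-0.34 ± 0.0655, edgeR adjusted p = 0.00111). Neither gene overlapped between the groups, as was so of 9 of 28 members and 31.4% of all genes.

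cd63 (chromosome 23, 32066168 to 32085939) had 152, 148 and 151 CPM in sgsh heads, against 160, 178 and 175 CPM in WT heads (log2 fold change -0.16 ± 0.0385, edgeR adjusted p = 0.00609). scarb2a was the member that rose, with 74.7, 79.1 and 78.6 CPM in sgsh heads, against 71.2, 69.1 and 65.7 CPM in WT heads (0.19 ± 0.0432, edgeR adjusted p = 0.00434). With DESeq2 cd63 was lost (adjusted p = 0.0577). Leaving out WT replicate 2 left 3 members called, and leaving out WT replicate 1 gave 8.

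In 2-month brains no member was called by edgeR, beside 0.841% of 19749 genes. sgsh itself was not called there either (log2 fold change -0.88 ± 0.256, edgeR adjusted p = 0.201), so a missing call does not show a missing change. At an unadjusted p under 0.05 there were 3 members, namely cln8 at -0.41 ± 0.124 (SE), scarb2a at -0.22 ± 0.0677 and tfe3a at -0.43 ± 0.160, and DESeq2 called 0. This was 10.7% of the members, beside 10.9% of all genes at that p. scarb2a had 209, 221 and 198 CPM in sgsh brains, against 256, 236 and 239 CPM in WT brains, and cln8 had 6.63, 6.2 and 5.6 CPM in sgsh brains, against 8.86, 7.85 and 7.8 CPM in WT brains, so that neither gene overlapped between the genotypes although both missed the threshold. The same held for 7 of 28 members and 15.5% of all genes. The median standard error of a member was 0.105 on the log2 scale here, and log2 fold changes lay between -0.43 and 0.20.

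In 3-month brains 2 of 28 members were called, both higher in sgsh, beside 3.32% of 19922 genes (2.18% higher and 1.13% lower). asah1b (chromosome 1, 16654254 to 16665044) had 45.4, 49.4 and 47.5 CPM in sgsh brains, against 36.6, 36.9 and 37.4 CPM in WT brains. The log2 fold change was 0.38 ± 0.0572 (SE, edgeR adjusted p = 0.00404), and the call held under every alternative tried, with adjusted p values up to 0.0351. grna had 29.5, 33.0 and 28.8 CPM in sgsh brains, against 20.6, 20.4 and 25.2 CPM in WT brains (0.49 ± 0.0916, edgeR adjusted p = 0.0152).

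The grna call at 3 months was lost in a joint fit with the 18-month brains (edgeR adjusted p = 0.239) and without WT replicate 1 (0.0777) or WT replicate 2 (0.102). Leaving out sgsh replicate 2 gave 4 called members, and leaving out WT replicate 1 or WT replicate 2 gave 1. The paralogs asah1a and grnb were at 0.03 and 0.05. Of the members, 21 had positive and 7 negative log2 fold changes, with a median of 0.11, and without WT replicate 1 only 15 were positive. Over all genes 48.7% were positive and the median was -0.01. An unadjusted p under 0.05 was reached by 12 members (42.9%), beside 17.4% of all genes.

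Markers of other cells also differed at 3 months. Of 7 oligodendrocyte markers 4 were lower in sgsh brains, with a median of -0.27 and a summed level of 3524 to 3647 CPM in sgsh and 4163 to 4431 CPM in WT brains. Of the 16 microglia markers 1 was higher (apoeb, 0.43) and 2 were lower (c1qa, -1.02, and cd74a, -0.36), with a median of -0.26. Their list summed to 656 to 660 CPM in sgsh and 653 to 727 CPM in WT brains. Most of these sums were apoeb, at 264 CPM in sgsh and 200 CPM in WT brains, and cd74a, at 228 and 296 CPM. Of 8 pigment cell markers, 6 could be tested and 4 were higher in sgsh, and the list summed to 102 to 138 CPM in sgsh and 11.2 to 15.1 CPM in WT brains. At 2 months it summed to 54.5 to 73.0 CPM in sgsh and 18.0 to 20.5 CPM in WT brains without Tg. Most of the 3-month sum in sgsh was pmelb, which averaged 96.2 CPM in sgsh and 6.84 CPM in WT brains. At 3 months mitfa (-0.67) and slc24a5 (0.54) were not called, and tyr and slc45a2 were too low to be tested. Pigment cells are rich in lysosome-related organelles. The part of these cell types in the members' values was not tested.

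**Figure D3:**
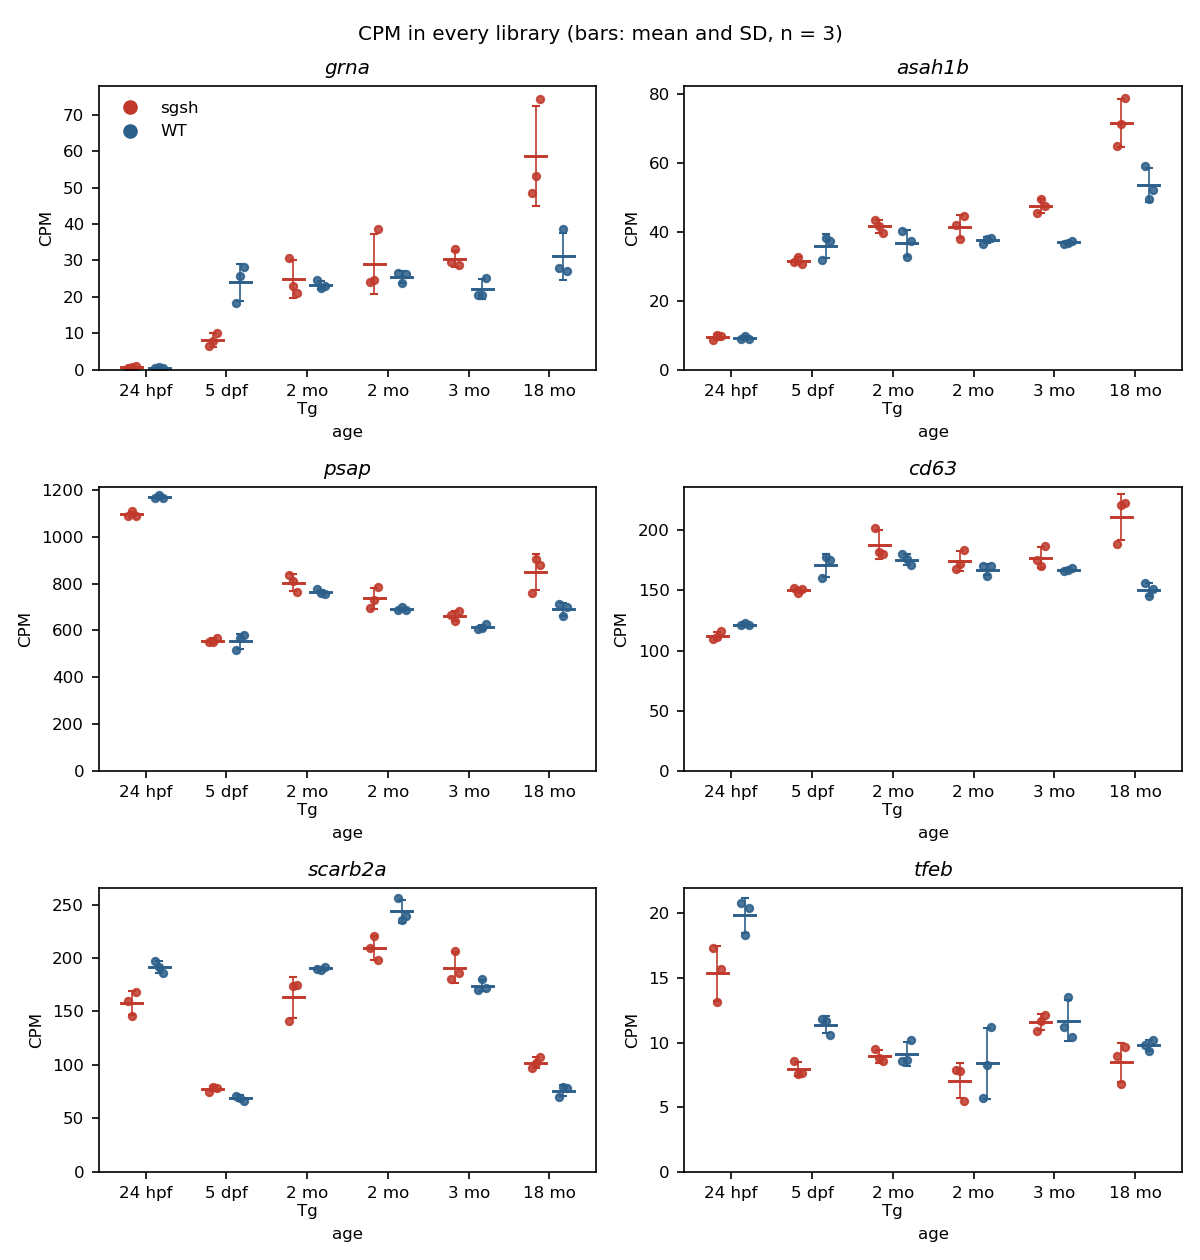
CPM of grna, asah1b, psap, cd63, scarb2a and tfeb in every library, with sgsh left of WT at each age, points for libraries and bars for the mean and SD of 3. At 18 months the sgsh libraries of grna, asah1b, psap, cd63 and scarb2a lie above the WT libraries, with sgsh psap at 761 to 906 CPM and WT psap at 660 to 713 CPM.

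At 18 months 5 of 28 members were called, all higher in sgsh, beside 6.96% of 20116 genes (4.59% higher and 2.37% lower). The median log2 fold change of the members was 0.19, against 0 over all genes, and 21 of 28 were positive, beside 50.5% of all genes.

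psap (chromosome 13, 5004924 to 5028964) had 761, 906 and 881 CPM in sgsh brains, against 713, 660 and 700 CPM in WT brains (log2 fold change 0.34 ± 0.0812, edgeR adjusted p = 0.0444). asah1b had 65.0, 71.2 and 78.8 CPM in sgsh brains, against 59.2, 49.5 and 52.2 CPM in WT brains (0.46 ± 0.0994, edgeR adjusted p = 0.0339). Both are genes of sphingolipid breakdown, and saposin D, which is cut from the product of psap, is the activator of acid ceramidase. The second ceramidase gene asah1a was at 0.45 ± 0.117 with an adjusted p of 0.0546.

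scarb2a had 96.9, 102 and 107 CPM in sgsh brains, against 69.7, 79.3 and 78.2 CPM in WT brains (log2 fold change 0.47 ± 0.0712, edgeR adjusted p = 0.0105). Its human counterpart carries glucocerebrosidase to the lysosome. cd63 had 189, 221 and 223 CPM in sgsh brains, against 156, 145 and 151 CPM in WT brains (0.53 ± 0.0816, edgeR adjusted p = 0.0114). grna had 48.5, 53.1 and 74.2 CPM in sgsh brains, against 27.8, 38.6 and 27.1 CPM in WT brains (0.95 ± 0.205, edgeR adjusted p = 0.0439), while grnb was at -0.03. None of the 5 overlapped between the genotypes, and nor did 15 of 28 members and 33.8% of all genes.

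The number of calls at 18 months depended on single libraries. Without sgsh replicate 2 no member was called, and the adjusted p values of the 5 then lay between 0.0571 for scarb2a and 0.151 for psap. Without WT replicate 2, WT replicate 3, sgsh replicate 3 or WT replicate 1 the counts were 1, 2, 3 and 3, and without sgsh replicate 1, the library that stood furthest from its replicates, the count was 10, with all 5 among them. Their log2 fold changes stayed positive throughout, at 0.27 to 0.42 for psap and 0.74 to 1.13 for grna. DESeq2 called 8 members and a joint fit with 3 months 10, both with all 5 among them. Without a filter on low counts 4 were called and grna was lost (edgeR adjusted p = 0.0852). With the replicate number as a block 1 was called, scarb2a, although these numbers were not shown to pair the libraries.

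Several uncalled members had changes of similar size at 18 months. galns, which had 10.5, 18.5 and 16.5 CPM in sgsh brains, against 9.42, 8.62 and 8.52 CPM in WT brains, was at 0.82 ± 0.210 (edgeR adjusted p = 0.0574). Replicate 1 was the lowest sgsh library for galns and for each of the 5 called members. mcoln1a was at -0.23 ± 0.0791, and tfeb, tfe3a and tfe3b had values of -0.17, -0.50 and -0.60 without being called.

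Of the 16 microglia markers, 2 were higher in sgsh brains at 18 months, namely apoeb, an apolipoprotein gene that glia also express (0.85), and havcr1 (0.69). The median was 0.34, and the list summed to 988 to 1280 CPM in sgsh and 834 to 886 CPM in WT brains. Most of these sums were apoeb, at 280 CPM in sgsh and 159 CPM in WT brains, and cd74a, at 489 and 422 CPM, which was not called. irf8 and csf1ra were at 0.07 and 0.06. Of 8 pigment markers, 6 could be tested and 3 were higher, and the list summed to 86.2 to 125 CPM in sgsh and 9.55 to 13.4 CPM in WT brains. Most of this sum in sgsh was pmelb, which averaged 84.4 CPM in sgsh and 8.01 CPM in WT brains. The other tested pigment markers, dct (2.31), mitfa (0.04) and slc24a5 (-0.14), were not called. Of 3 endothelial markers 2 were higher (87.3 to 99.1 CPM in sgsh and 57.5 to 69.6 CPM in WT). Of 6 radial glia markers 1 was higher and 1 lower, and the list summed to 6112 to 6440 CPM in sgsh and 5371 to 5677 CPM in WT brains. The part of these cells in the members' values was not tested.

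Whether the effect of genotype differed between 3 and 18 months was tested as an interaction over the 12 libraries of these ages. By edgeR no member was called, beside 0.0631% of 20608 genes, while 2 members (7.14%) had an unadjusted p under 0.05, beside 14.6% of all genes, and DESeq2 called 1. The smallest adjusted p belonged to cd63, for which the sgsh effect was 0.41 ± 0.0965 larger at 18 months on the log2 scale (edgeR adjusted p = 0.132), followed by scarb2a at 0.29 ± 0.0875 (0.190). For grna the value was 0.45 ± 0.246 (0.406). Without sgsh 18-month replicate 1 the count was 2. An effect that passed at 18 months and not at 3 months is therefore not shown to differ between these ages.

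The members were also compared between ages within each genotype. The 3- and 18-month brains came from different fish, so that age and a difference between the cohorts cannot be told apart. Between 18-month and 3-month sgsh brains 16 of 28 members were called by edgeR, 14 higher and 2 lower at 18 months, beside 19.3% of 20608 genes (9.79% higher and 9.50% lower). Between 18-month and 3-month WT brains 13 were called, 12 higher and 1 lower, beside 20.7% (9.05% higher and 11.7% lower). The median log2 fold change of the members was 0.29 in sgsh and 0.24 in WT, against -0.02 and 0.01 over all genes. The members called in both genotypes were lamp1b, asah1b, manba, man2b1, aga, tpp1, ppt1 and galca, all higher, and scarb2a, which was lower. In WT man2b1 lost its call in 6 of 12 fits that left out 1 library, manba in 5, ppt1 in 3 and tpp1 in 2. In sgsh manba lost its call in 3 of 12. The calls of lamp1b, asah1b, aga, galca and scarb2a held in every such fit in both genotypes. The share of all genes called the same way in both genotypes was not computed. These comparisons share libraries with the genotype comparisons above.

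scarb2a had 96.9, 102 and 107 CPM in 18-month sgsh brains, against 180, 207 and 186 CPM in 3-month sgsh brains, a log2 fold change of -0.89 ± 0.0620 (SE, edgeR adjusted p = 6.79e-06). In WT it had 69.7, 79.3 and 78.2 CPM at 18 months, against 170, 180 and 172 CPM at 3 months (-1.18 ± 0.0628, edgeR adjusted p = 1.83e-07). In WT this was the largest change of any member with age, and in sgsh it was second to grna. tfeb was the other gene that fell in sgsh, with 8.97, 6.77 and 9.64 CPM at 18 months, against 10.9, 11.7 and 12.1 CPM at 3 months (-0.44 ± 0.129, edgeR adjusted p = 0.0298), and in WT it was at -0.24 ± 0.128 and was not called. The tfeb call in sgsh was lost in 4 of 12 fits that left out 1 library.

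grna had 48.5, 53.1 and 74.2 CPM in 18-month sgsh brains, against 29.5, 33.0 and 28.8 CPM in 3-month sgsh brains (0.96 ± 0.172, edgeR adjusted p = 0.00385), and in WT it was at 0.51 ± 0.177 (adjusted p = 0.066). aga, the aspartylglucosaminidase that acts on glycoproteins, had 12, 12.1 and 12.3 CPM in 18-month sgsh brains, against 7.90, 6.59 and 8.06 CPM in 3-month sgsh brains (0.70 ± 0.132). In WT it had 13.2, 9.97 and 13.9 CPM at 18 months, against 8.85, 7.72 and 9.09 CPM at 3 months (0.54 ± 0.131). The 18-month libraries of aga lay above the 3-month libraries in both genotypes. Such a separation, in either direction, was seen for 21 members in sgsh and 19 in WT, beside 34.7% and 41.7% of all genes.

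tpp1 followed at 0.66 ± 0.117 in sgsh and 0.46 ± 0.120 in WT, asah1b at 0.61 ± 0.0799 and 0.55 ± 0.0811, and galca at 0.54 ± 0.103 and 0.46 ± 0.103. cln3 was among the 5 largest rises in WT, at 0.54 ± 0.142, and in sgsh it was at 0.28 ± 0.143 without a call. Without sgsh 3-month replicate 1 or replicate 2 the count in sgsh was 10. Without WT 3-month replicate 1 or WT 18-month replicate 1 the count in WT was 5, and without WT 3-month replicate 3 or WT 18-month replicate 2 it was 8.

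**Figure D4:**
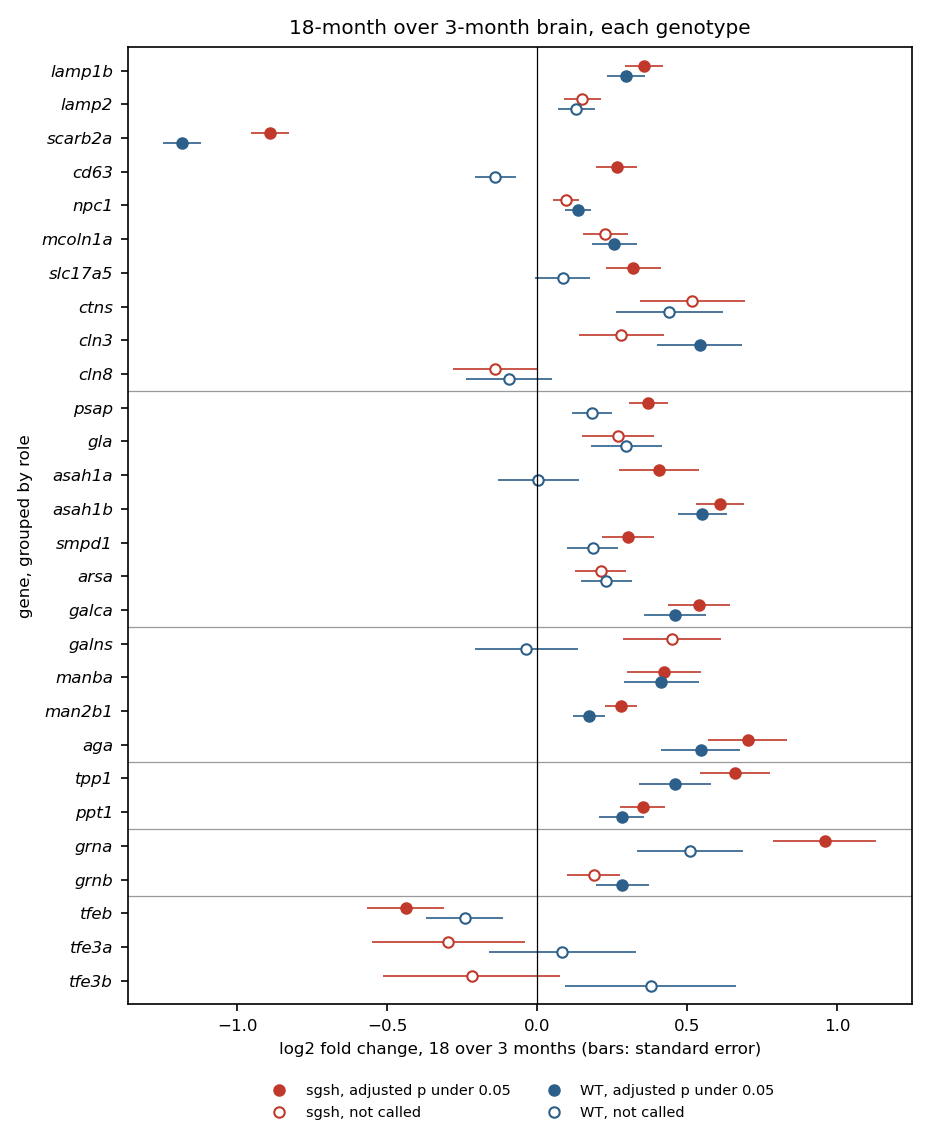
log2 fold change of each gene, 18 over 3 months, in sgsh and in WT brains, with standard errors as bars and filled points at an adjusted p under 0.05 (edgeR), genes ordered by role. scarb2a lies far left in both genotypes, at -0.89 in sgsh and -1.18 in WT, and most hydrolases lie right of 0.

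Cell type markers shifted with age as well. Of the 16 microglia markers, 14 were higher at 18 months in sgsh, with a summed level of 988 to 1280 CPM at 18 months and 656 to 660 CPM at 3 months. In WT 6 were higher and 1 lower, with 834 to 886 CPM at 18 months and 653 to 727 CPM at 3 months. Most of each of these sums was apoeb and cd74a. Of 7 oligodendrocyte markers, 5 were lower at 18 months in both genotypes. Of 7 neuronal markers 2 were higher and 3 lower in sgsh and 1 was higher in WT, and of 6 radial glia markers 1 was lower in sgsh and 3 in WT. Their part in the members' ageing values was not tested.

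The transgene comparisons at 2 months asked what expression of sgsh from Tg did to these genes. In sgsh brains 6 of 28 members were called by edgeR for Tg against no Tg, 2 higher and 4 lower, beside 18.3% of 19749 genes (8.74% higher and 9.59% lower). In WT brains 6 were called, all lower, beside 15.2% (6.78% higher and 8.45% lower). The 2 contrasts use different libraries of the same fit, and galns, man2b1, tpp1 and scarb2a were called lower in both. The share of all genes called lower in both was not computed, so this overlap is not shown to be particular to the members. Whether fish with and without Tg were raised side by side was not stated, so that Tg and a difference between the stocks cannot be told apart.

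galns (chromosome 7, 55543351 to 55633475) had 10.8, 11.2 and 8.66 CPM in sgsh brains with Tg, against 14.5, 13.5 and 14.0 CPM in sgsh brains without Tg (log2 fold change -0.45 ± 0.113, edgeR adjusted p = 0.0114). In WT it had 9.75, 7.81 and 8.89 CPM with Tg, against 11.2, 12.5 and 12.8 CPM without Tg (-0.46 ± 0.116, edgeR adjusted p = 0.0131). The groups with and without Tg did not overlap in either genotype, as was so of 10 members in sgsh and 13 in WT, beside 32.9% and 37.4% of all genes. The call was lost in sgsh without sgsh Tg replicate 3 (0.0639), and in WT without WT replicate 3 (0.0518) or WT Tg replicate 2 (0.069).

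man2b1 (chromosome 11, 31258116 to 31276080) had 32.5, 33.8 and 31.2 CPM in sgsh brains with Tg, against 40.4, 38.5 and 39.6 CPM in sgsh brains without Tg (-0.27 ± 0.0577, edgeR adjusted p = 0.00381). In WT it had 33.0, 31.4 and 31.7 CPM with Tg, against 40.6, 40.9 and 39.3 CPM without Tg (-0.33 ± 0.0577, edgeR adjusted p = 0.0015). These groups were narrow and well apart.

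tpp1 (chromosome 17, 30843881 to 30855792) had 9.29, 8.48 and 9.28 CPM in sgsh brains with Tg, against 11.5, 13.1 and 10.4 CPM in sgsh brains without Tg (-0.36 ± 0.112, edgeR adjusted p = 0.0361). In WT it had 9.51, 8.80 and 8.83 CPM with Tg, against 13.4, 10.7 and 11.3 CPM without Tg (-0.38 ± 0.112, edgeR adjusted p = 0.032). DESeq2 did not call it in sgsh (0.0676) or in WT (0.0597). In sgsh it was also lost in a fit of those 6 libraries only (0.0757) and in 5 of 12 fits that left out 1 library, with adjusted p values up to 0.149.

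scarb2a had 141, 174 and 175 CPM in sgsh brains with Tg, against 209, 221 and 198 CPM in sgsh brains without Tg (-0.35 ± 0.0681, edgeR adjusted p = 0.0023). In WT it had 190, 189 and 192 CPM with Tg, against 256, 236 and 239 CPM without Tg (-0.35 ± 0.0678, edgeR adjusted p = 0.00259). The calls of scarb2a and man2b1 held under every alternative in both genotypes.

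A further 2 members were called in sgsh brains. lamp2 had 136, 150 and 141 CPM with Tg, against 122, 128 and 116 CPM without Tg (0.23 ± 0.0593, edgeR adjusted p = 0.0122), and tfe3b had 5.01, 5 and 5.53 CPM with Tg, against 4.1, 3.31 and 2.68 CPM without Tg (0.63 ± 0.155, edgeR adjusted p = 0.00954). Neither gene overlapped between the groups. The lamp2 call was lost without sgsh Tg replicate 2 (0.064). In WT lamp2 was at 0.08 and tfe3b at 0.34 without a call, which is not shown to differ from sgsh.

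A further 2 members were called in WT brains. npc1 had 64.7, 59.0 and 63.4 CPM with Tg, against 70.8, 73.2 and 71.1 CPM without Tg (-0.20 ± 0.0573, edgeR adjusted p = 0.0296), and cln8 had 6.44, 5.48 and 6.48 CPM with Tg, against 8.86, 7.85 and 7.80 CPM without Tg (-0.41 ± 0.124, edgeR adjusted p = 0.0358). cln8 was lost with DESeq2 (0.0885) and without a filter on low counts (0.0556). In sgsh npc1 was at -0.05 and cln8 at -0.08 without a call, which again is not shown to differ from WT. The count of 6 in WT was 3 without WT replicate 1, 2 without WT replicate 3, 2 without WT Tg replicate 2 and 3 without WT Tg replicate 3. When each of the 12 libraries was left out in turn, tpp1 and npc1 lost their calls 5 times and cln8 6 times in WT.

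**Figure D5:**
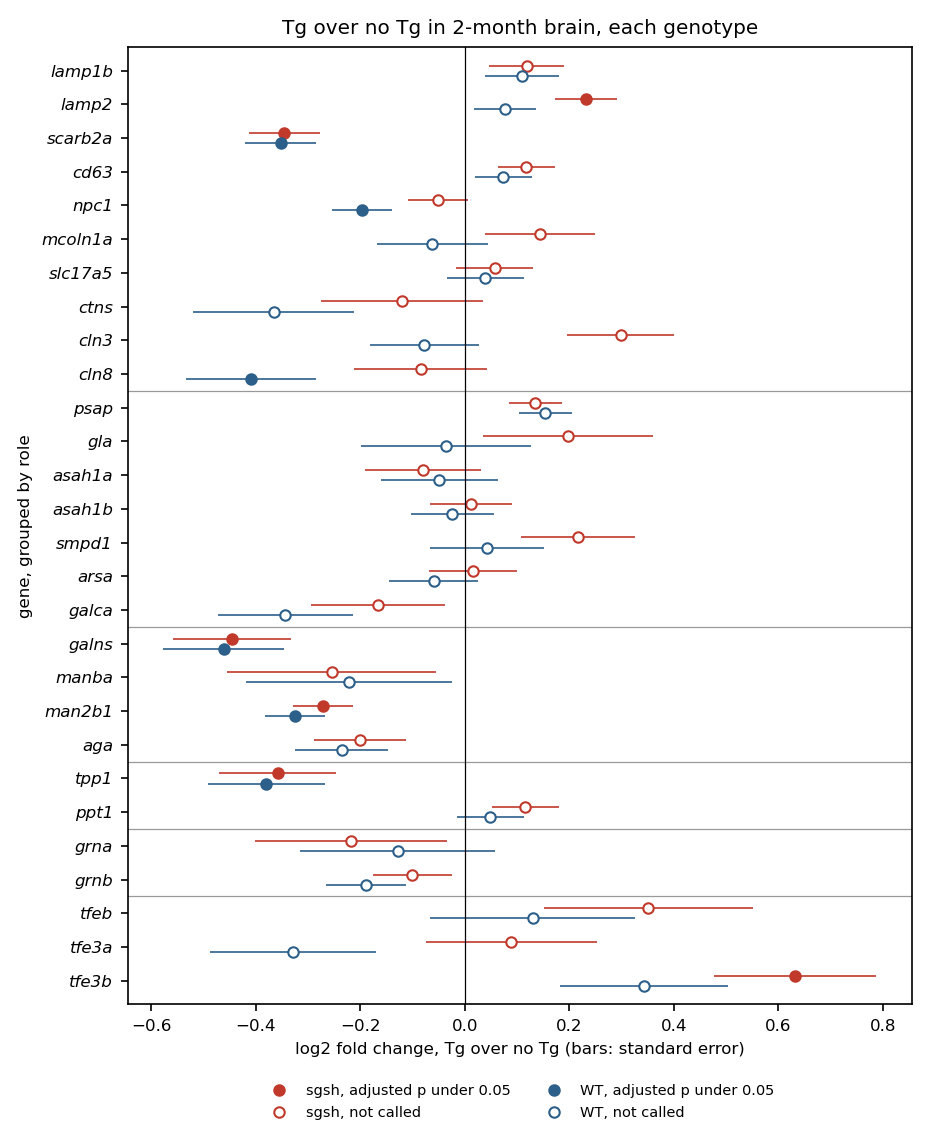
log2 fold change of each gene, Tg over no Tg, in sgsh and in WT 2-month brains, with standard errors as bars and filled points at an adjusted p under 0.05 (edgeR), genes ordered by role. Filled points of both genotypes lie left of 0 for scarb2a, galns, man2b1 and tpp1, at -0.27 to -0.46.

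Whether Tg acted differently in the genotypes was tested as an interaction, and no member was called by edgeR, beside 0.177% of 19749 genes. DESeq2 called 0, and cln3 was the 1 member of 28 with an unadjusted p under 0.05, beside 9.48% of all genes (0.38 ± 0.147, edgeR adjusted p = 0.405). Between sgsh and WT brains that both carried Tg, no member was called, beside 0.0253% of 19749 genes, with 5 members (17.9%) at an unadjusted p under 0.05, beside 6.25% of all genes, and 0 called by DESeq2. Among these 5, scarb2a had 141, 174 and 175 CPM in sgsh Tg brains, against 190, 189 and 192 CPM in WT Tg brains (-0.22 ± 0.0681, edgeR adjusted p = 0.601).

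Other cell types differed between brains with and without Tg. In sgsh brains 5 of 7 oligodendrocyte markers were higher with Tg (5904 to 6774 CPM with Tg and 4279 to 5081 CPM without), 4 of 6 tested pigment markers were lower (11.5 to 26.2 CPM with Tg and 54.5 to 73.0 CPM without), and 3 of 16 microglia markers were higher (828 to 1103 CPM with Tg and 666 to 866 CPM without). Lower with Tg in sgsh were also 2 of 6 tested red blood cell markers, 2 of 6 radial glia markers and 1 of 3 endothelial markers, and 2 of 7 neuronal markers were higher. In WT brains 2 of 3 endothelial markers were lower (98.4 to 107 CPM with Tg and 111 to 117 CPM without), as were 2 of 6 radial glia markers (5340 to 5672 CPM with Tg and 6217 to 6543 CPM without) and 1 marker each of red blood cells, pigment cells and microglia. In WT 2 neuronal markers were higher and no oligodendrocyte marker was called. Of 7 tested muscle markers 0 were called, but their median log2 fold change was 3.09 in sgsh and 2.4 in WT. The muscle list in sgsh summed to 42.6 to 1210 CPM with Tg and 32.3 to 85.4 CPM without. In WT it summed to 22.6 to 1027 CPM with Tg and 36.9 to 121 CPM without. The part of these tissues and cell types in the members' values was not tested.

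A further 8 rows of the tables lie outside the rule but are linked to names on the list. GAA and ARSB differ from the listed names only in capitals, and the other rows are linked by older symbols. npc2.1 and npc2.2 are copies of the gene whose product passes cholesterol to npc1 in the lysosome, lie side by side on chromosome 17 (43030317 to 43031828 and 43021662 to 43022468), and reads may have been split between them. npc2.1 had 361, 369 and 358 CPM in sgsh embryos, against 419, 424 and 436 CPM in WT embryos (log2 fold change -0.23 ± 0.0350, edgeR adjusted p = 9.89e-06). At 18 months it had 57.3, 71.6 and 70.1 CPM in sgsh brains, against 42.4, 37.1 and 39.1 CPM in WT brains (0.79 ± 0.106, edgeR adjusted p = 0.0077), and at 3 months it was at 0.28 ± 0.0578 (0.022), a call that was lost in the joint fit with 18 months (0.124) and without sgsh replicate 3, WT replicate 1 or WT replicate 2. The groups did not overlap at these 3 ages. In 2-month brains npc2.1 was at -0.06 and in 5 dpf heads at 0.12, without a call and with overlapping groups.

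npc2.2 was scarce, with 3.20, 2.27 and 5.00 CPM in sgsh 18-month brains, against 0.222, 0.404 and 0.178 CPM in WT 18-month brains (3.72 ± 0.415, edgeR adjusted p = 0.00357). At 3 months it had 0.527, 0.869 and 0.750 CPM in sgsh brains, against 0.0443, 0.0444 and 0.310 CPM in WT brains, where WT libraries held as little as 1 count. lipf, linked to lipa, a lysosomal lipase gene, had 23.9, 25.4 and 26.4 CPM in sgsh 18-month brains, against 15.3, 17.3 and 18.6 CPM in WT 18-month brains (0.60 ± 0.0972, edgeR adjusted p = 0.0131). This call was lost without sgsh replicate 2 (0.0659) and without WT replicate 2 (0.065). The 2 rows linked to gaa, the 2 linked to fuca1 and the 1 linked to arsb were not called in the comparisons of sgsh with WT. With Tg, ARSB was lower in WT brains, at 3.62, 3.38 and 3.21 CPM with Tg, against 4.43, 6.45 and 5.84 CPM without Tg (-0.71 ± 0.214, edgeR adjusted p = 0.0356).

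The remaining genes of the lysosome on the list used here moved as follows. Of the 45 tested at 24 hpf, 5 were higher and 8 lower in sgsh, beside 10.9% and 11.1% of all genes. Of 47 at 5 dpf, 1 was higher and 3 lower, beside 5.92% and 8.69%. Of 46 at each brain age, 1 was higher and none lower at 2 months, beside 0.841% in either direction. At 3 months 12 were higher and none lower, beside 2.18% and 1.13%. At 18 months 15 were higher and 1 lower, beside 4.59% and 2.37%. The cathepsin list, which also held the legumain gene lgmn, made up 8 of the higher genes at both 3 and 18 months, of 12 tested. lgmn was 1 of the 8 at both ages. ctsla was at 0.54 and 0.96 and ctsba at 0.39 and 0.71. At 18 months hexa was the gene that was lower, at -1.17. At 3 months hexa was among the higher genes, at 0.50 to 0.73 over the alternative fits, a call lost in 4 of 6 fits that left out 1 library. At 24 hpf it was lower, at -0.67 to -0.57 over such fits. Many of these calls were lost in fits that left out 1 library, such as ctsk and lgmn at 3 months and gm2a and m6pr at 18 months (5 of 6 each). Those of ctsla and ctsba at 3 and 18 months were never lost. With Tg, 7 were higher and 7 lower in sgsh brains, beside 8.74% and 9.59% of all genes. In WT brains 9 were higher and 3 lower with Tg, beside 6.78% and 8.45%.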

How the data were processed

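Gene counts from bulk RNA-seq of zebrafish embryos, heads and brains were used as deposited by the authors, without normalization. The names of the deposited files give STAR alignment and featureCounts. Per the file headers, the 5 dpf and 2-month counts were made with featureCounts 2.0.1 from read pairs with both ends mapped, a mapping quality of at least 10 and reverse strand, and the counts of the other ages came in 1 table whose strand and filters were not given in the sources used here. The submitters' processing notes also name HISAT2, Bowtie2, RSEM and GRCz11, and coordinates are those of the files.

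The members and all gene lists were chosen with earlier results of these data known. Library totals and groups are given in the report. Each comparison was fitted across all genes in R 4.3.3 with edgeR 4.0.16 (TMM, filterByExpr with a minimum count of 10 and total of 15, quasi-likelihood F test, Benjamini-Hochberg adjustment over all genes tested, called at an adjusted p under 0.05). The 2-month groups shared 1 fit, as did the 3- and 18-month groups for ageing and its interaction, while sgsh and WT at 24 hpf, 5 dpf, 3 months and 18 months were fitted on their own 6 libraries. CPM are counts over the library total without TMM factors, and RPKM also divide by gene length. Each SE of a log2 fold change was derived from the test, as its absolute value over the square root of the F statistic. Named genes were the members called in a comparison (where over 8 were called, the 8 of smallest adjusted p in full), up to 5 each way by size for stage and age, and related or uncalled members named for contrast were chosen after their values were seen. The model was tested on simulated counts with planted changes, for sgsh against WT in 2- and 3-month brains only. The outcome is not given here and lends no support to the calls above. Alternatives were DESeq2 1.42.0, RLE scaling, other count filters, a replicate block, other sets of libraries and leaving out each library. Paralogs (asah1a and asah1b, grna and grnb, tfe3a and tfe3b) could share reads.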

Additional observations from a re-analysis of the deposited data

Results flagged for a closer look

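Several members were called in opposite directions in sgsh at different ages, and the share of all genes so called was not computed. Calls were taken only where every sgsh library lay on 1 side of the WT libraries, so this separation adds no support. Such a separation was seen for 36.2% of all genes at 24 hpf, 31.4% at 5 dpf, 25.2% at 3 months and 33.8% at 18 months. scarb2a had a log2 fold change of -0.28 at 24 hpf, 0.19 at 5 dpf and 0.47 at 18 months. cd63 was at -0.11 at 24 hpf, -0.16 at 5 dpf and 0.53 at 18 months, and psap at -0.09 at 24 hpf and 0.34 at 18 months, and either psap call was lost in 5 of 6 fits that left out 1 library. smpd1 was at 0.21 at 24 hpf and -0.34 at 5 dpf. grna was at -1.54 at 5 dpf, 0.49 at 3 months and 0.95 at 18 months. The 24 hpf calls of smpd1 and cd63 were each lost with DESeq2 and in 4 of 6 fits that left out 1 library. In such fits cd63 was also lost in 1 of 6 at 5 dpf and 2 of 6 at 18 months. The grna call was lost in 2 of 6 at 5 dpf, 2 of 6 at 3 months and 4 of 6 at 18 months, and scarb2a in 1 of 6 at 18 months. For 3 and 18 months the difference was tested as an interaction, and grna was not called (edgeR adjusted p = 0.406). The other differences between these ages were not tested, and age cannot be told apart from tissue between embryos, heads and brains.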

How the results depend on the processing

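With DESeq2, 6 members were called at 24 hpf in place of 12, 8 at 18 months in place of 5, and 1 in the genotype by age interaction in place of 0. A joint fit of 3 and 18 months called 1 member at 3 months in place of 2 and 10 at 18 months in place of 5. With the replicate block, 4 members were called at 3 months in place of 2 and 1 (scarb2a) at 18 months in place of 5, with psap at 0.132, asah1b at 0.115, grna at 0.0837 and cd63 at 0.0587 (edgeR adjusted p). At 24 hpf psap was lost with the block (0.0586). Replicate numbers were not shown to pair the libraries, since in no pair of groups were all 3 correlations of same-numbered libraries over 0.1, although at 5 dpf and in 2-month brains without Tg each library matched its own number best. The other counts under these settings were within 1.5 times the reported ones.

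Leaving out 1 library at a time gave 6 to 10 called members at 24 hpf, 3 to 8 at 5 dpf, 0 to 1 at 2 months, 1 to 4 at 3 months, 0 to 10 at 18 months and 0 to 2 for the genotype by age interaction. For Tg it gave 4 to 8 in sgsh and 2 to 7 in WT, and for age 10 to 17 in sgsh and 5 to 15 in WT. For WT stages it gave 24 to 26 and 18 to 20. With sgsh Tg against WT Tg and genotype by Tg it stayed at 0. Over the log2 fold changes of called members refitted once for each alternative, 31 of 574 lost their call under other settings and 150 of 912 when a library was left out, and none reversed. These totals include the stage and age comparisons, and none of the 24 calls between WT embryos and WT 3-month brains was lost. The share lost was larger among the sgsh against WT calls alone. At 18 months, of 6 fits that left out 1 library, psap lost its call in 5, asah1b and grna in 4, cd63 in 2 and scarb2a in 1. The median standard error of a member was 0.0718 at 24 hpf and 0.105 in 2-month brains on the log2 scale, and this spread between libraries limits how small a change could be called.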
